A study of Mus musculus with 4 samples.

Results

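The 6 MAP kinase phosphatases Dusp1, Dusp4, Dusp6, Dusp8, Dusp10 and Dusp16 were followed in livers of fasted and re-fed mice. They were taken as the probes that the array's design names for these genes, 7 of the 39429 probes on the array, with 2 probes for Dusp16 and 1 for each of the others, and 6 of its 31835 gene names. The rule that picks the probes uses names and no measured value, although the family was chosen with earlier results of these data known. Livers came from 8 male C57BL/6J mice aged 8 to 12 weeks. The fasted mice had no food for 24 h, and the re-fed mice had food for 2 h after the same 24 h fast, so that no liver came from a mouse fed throughout. The study set the conditions against each other to find transcripts that follow fasting, in which glucagon and cAMP act on the liver. RNA of individual livers, 200 ng of each, was amplified and read on 4 two-colour arrays on 1 slide. Each array carried 1 fasted and 1 re-fed liver, paired at random, one in the red dye Cy5 and the other in the green dye Cy3. The fasted liver was in Cy5 on arrays 1 and 2 and in Cy3 on arrays 3 and 4. Values are log2 ratios of fasted over re-fed liver (n = 4 arrays), or normalized log2 intensities of each liver. A gene was called where limma gave a Benjamini-Hochberg adjusted p under 0.10 and the change was at least 1.5-fold.

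MAP kinases relay growth factor, stress and cytokine signals, and they work only while a threonine and a tyrosine of their activation loop carry phosphate. The MAP kinase phosphatases remove both phosphates and so switch the kinases off. Many of their genes are themselves switched on by the pathway they restrain, which makes them a negative feedback, and Dusp1 also answers to cAMP and glucocorticoids in many cells. Dusp1 and Dusp4 encode nuclear enzymes that act on ERK, JNK and p38, Dusp6 a cytoplasmic enzyme that acts on ERK, and Dusp8, Dusp10 and Dusp16 enzymes that act mainly on JNK and p38.

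The promoter sequences are shown because the study was built on CREB, the factor that binds the cAMP response element (CRE). The 3 windows printed were picked with the array results known, and a link between the element and the ratios was not tested. Windows are the 250 bases before the RefSeq start site in GRCm38.p6, printed 5′ to 3′ on the strand of the gene, and 5 of the 6 genes had one, all but Dusp4. Capitals mark the full CRE, TGACGTCA, and the short CRE, TGACG, which the full CRE contains. The Dusp1 window is chr17:26508473-26508722 on the minus strand, that of Dusp6 is chr10:99262981-99263230 on the plus strand, and that of Dusp8 is chr7:142095285-142095534 on the minus strand.
Dusp1: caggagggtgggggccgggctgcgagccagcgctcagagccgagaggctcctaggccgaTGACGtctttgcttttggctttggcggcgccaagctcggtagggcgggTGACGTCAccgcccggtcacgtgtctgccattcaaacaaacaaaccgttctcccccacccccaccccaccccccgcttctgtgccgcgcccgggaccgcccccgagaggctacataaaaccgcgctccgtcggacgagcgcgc
Dusp6: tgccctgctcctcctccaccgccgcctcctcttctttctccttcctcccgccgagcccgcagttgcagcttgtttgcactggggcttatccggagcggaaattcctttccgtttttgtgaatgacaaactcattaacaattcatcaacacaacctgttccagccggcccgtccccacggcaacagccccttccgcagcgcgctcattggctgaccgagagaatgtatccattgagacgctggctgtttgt
Dusp8: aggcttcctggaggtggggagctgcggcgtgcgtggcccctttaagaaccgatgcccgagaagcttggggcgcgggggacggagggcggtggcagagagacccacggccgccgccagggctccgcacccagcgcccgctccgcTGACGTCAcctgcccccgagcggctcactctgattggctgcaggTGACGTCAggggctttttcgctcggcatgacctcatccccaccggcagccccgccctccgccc

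Counted back from the start site to the first base of the motif, Dusp1 held 1 full CRE at -143 and a separate short CRE at -191. Dusp8 held 2 full CREs, at -107 and -63. No exact CRE of either length was found in the Dusp6 or Dusp10 windows, and Dusp16 held 1 short CRE at -70. Both strands were searched. Of all 32851 windows of this length, 1.55% held the full CRE and 17.8% the short one. The study's own definition of a full CRE allows 1 mismatch. By it Dusp1 held 2 matches, Dusp8 held 3, Dusp16 held 2, Dusp10 held 1 and Dusp6 held 0, and 10.6% of all windows held at least 1. The same 5 windows held no AP-1 site (TGANTCA, in 6.75% of all windows), no TATA box (TATAAA, 12.4%) and no CArG box (1.47%). They also held no match to the ETS motif CCGGAA (12%) or to the glucocorticoid receptor motif AGAACA (16.1%). Shorter forms of these motifs were not searched. These matches describe letters and not binding, which was not measured on the arrays. The study measured CREB binding by ChIP-seq in fasted and re-fed livers, and those data were not used here.

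Of the 7 probes, 4 were kept for testing, those of Dusp1, Dusp6 and Dusp10 and 1 of the 2 probes of Dusp16. To be kept, a probe's spot had to stand clear of the background in the fasted livers of all 4 arrays or in the re-fed livers of all 4, by the scanner software's flag, which held for 19719 probes of 16090 gene names. Among the 4 genes kept, Dusp1 was called higher in fasted liver and Dusp6 was called lower, while Dusp10 and Dusp16 were not called. Over all 16090 gene names, each by its brightest kept probe, 1.82% were called higher and 2.13% lower. The median log2 ratio over these genes was 0.0031. Dusp1 ranked 33 among genes by the size of the rise and Dusp6 ranked 239 by the size of the fall.

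**Figure D1:**
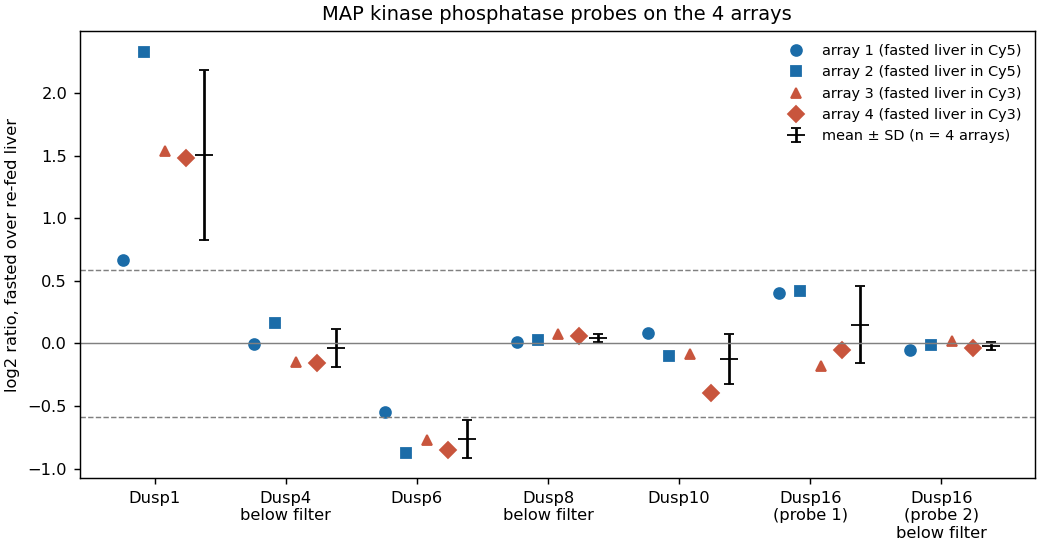
Log2 ratio of fasted over re-fed liver (y axis) for each of the 7 probes (x axis) on each array, with blue and red marking the dye of the fasted liver, the black bar the mean ± SD (n = 4 arrays) and dashed lines a 1.5-fold change. Dusp1 lay above 0 and Dusp6 below 0 on all 4 arrays, and the probes marked as below the filter stayed close to 0.

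Dusp1, the immediate early phosphatase also known as MKP-1, was 2.84-fold higher in fasted than in re-fed liver. Its normalized log2 intensities in the fasted livers of arrays 1 to 4 were 8.44, 9.66, 9.83 and 9.75, against 7.78, 7.33, 8.29 and 8.26 in the re-fed livers. Every fasted liver lay above every re-fed liver, and the closest pair were the fasted liver of array 1 and the re-fed liver of array 3. Such a separation upward was found for 6.04% of genes, and downward for 7.77%. The log2 ratios were 0.66, 2.33, 1.54 and 1.48, a mean of 1.504 ± 0.68 (SD, n = 4). Arrays 3 and 4 gave nearly equal ratios, and arrays 1 and 2, which shared a dye orientation, gave the smallest and the largest.

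The 95% interval of the Dusp1 change was 1.89-fold to 4.26-fold, with a limma standard error of 0.24 on the log2 scale and a Benjamini-Hochberg adjusted p of 0.0253. A two-sided exact permutation test of the 8 intensities, which ignores the pairing on the array, gave an unadjusted p = 0.0286, the smallest that its 70 splits allow. An exact sign-flip test of the 4 ratios, which keeps the pairing, gave p = 0.125, the smallest that its 16 sign flips allow. No dye effect was detected at this probe, with an estimate of -0.01 on the log2 scale. Raw median pixel intensity at the spot was 197, 751, 996 and 1150 in the fasted livers and 140.0, 124, 315 and 384 in the re-fed livers, against local backgrounds of 18 to 34. The call was lost without replicate 3, the array of the third pair of livers, where the mean was 1.49 and the adjusted p 0.101. It was also lost when the background model was fitted on all spots, where the mean was 0.83 and the adjusted p 0.559. The probe is annotated to NM_013642, and the file gives it a span of 11 bases on chromosome 17, from 26642526 to 26642536 in mm9, although the probe has 60 bases.

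Dusp6, the cytoplasmic phosphatase of ERK also known as MKP-3, was 1.70-fold lower in fasted liver. Normalized log2 intensities in the fasted livers of arrays 1 to 4 were 9.86, 10.42, 10.92 and 10.80, and those in the re-fed livers were 10.40, 11.30, 11.70 and 11.65. The fasted liver was the lower one on each array, but the groups overlapped, since the re-fed liver of array 1 lay below the fasted livers of arrays 2, 3 and 4. Both livers of array 1 were dimmer than the livers of the other arrays in their own group. The log2 ratios were -0.54, -0.88, -0.77 and -0.85, with a mean of -0.76 ± 0.15 (SD, n = 4).

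The interval of the Dusp6 fall was 1.47-fold to 1.95-fold at 95%, with a limma standard error of 0.08 and a Benjamini-Hochberg adjusted p of 0.0105. One sign on all 4 arrays was found for 14.1% of genes upward, as for Dusp1, and for 15.7% downward, as for Dusp6. Raw intensity ran from 527 to 2358 in the fasted livers and from 1044 to 4350.5 in the re-fed livers, against local backgrounds of 22 to 35. Tested without the pairing on the array, the fall was not called. The two-sided exact permutation test of the 8 intensities then gave p = 0.143, and limma on separate channels gave an adjusted p of 0.206. With the background model fitted on all spots the mean was -0.57 and the adjusted p 0.325. The probe is annotated to NM_026268 and lies on chromosome 10, from 98729985 to 98730044 in mm9.

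**Figure D2:**
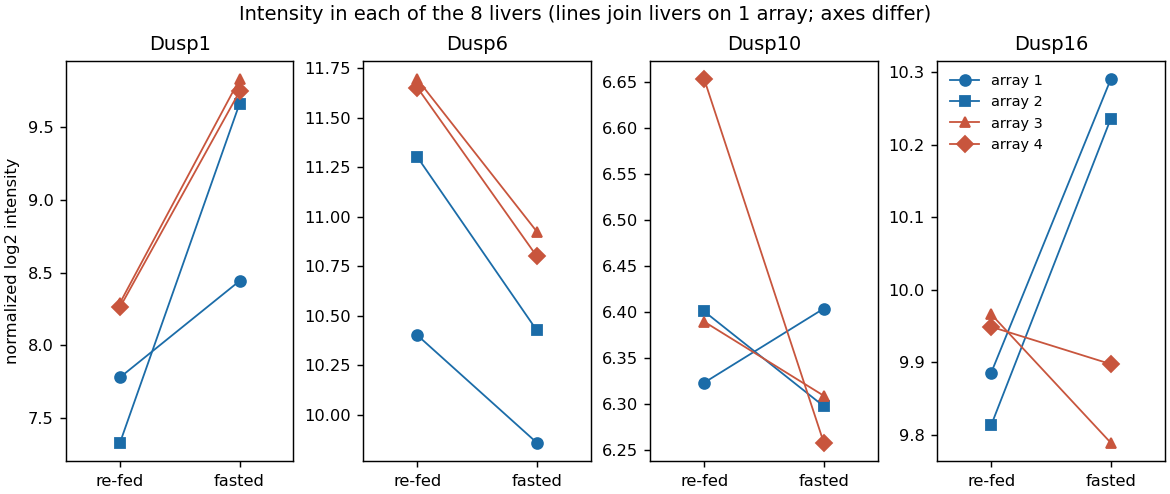
Normalized log2 intensity (y axis, a separate range in each panel) of each re-fed and each fasted liver (x axis) for the 4 genes kept, with lines joining the livers that shared an array. All 4 lines rise for Dusp1 and all 4 fall for Dusp6, from starting levels that differed between arrays, while the lines of Dusp10 and Dusp16 run both ways.

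Dusp16, a phosphatase of JNK and p38 also called MKP-7, split by dye orientation. At its brighter probe the log2 ratios were 0.40 and 0.42 with the fasted liver in Cy5 and -0.18 and -0.05 with the fasted liver in Cy3. The mean was 0.15 ± 0.31 (SD, n = 4), with a 95% interval of -0.15 to 0.45 and a limma Benjamini-Hochberg adjusted p of 0.568. Fasted livers of arrays 1 to 4 had normalized log2 intensities of 10.29, 10.24, 9.79 and 9.90, and re-fed livers 9.89, 9.81, 9.97 and 9.95. The fasted livers were the higher ones on arrays 1 and 2 and the lower ones on arrays 3 and 4, so the groups overlapped. A dye term at this probe was 0.26 on the log2 scale with a Benjamini-Hochberg adjusted p of 0.0585 in limma, and 15.4% of genes had a dye effect with an adjusted p under 0.10. With that term in the model the mean ratio was the same by construction and its adjusted p was 0.141. This bright probe had raw intensities of 718.5 to 1297 against backgrounds of 20 to 37.

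The second Dusp16 probe was too dim to be kept. Its log2 ratios were -0.05, -0.01, 0.02 and -0.04, and its raw intensities were 36 to 83 against backgrounds of 22 to 35.5. Both probes are annotated to NM_130447 on chromosome 6, the bright one from 134665783 to 134665842 and the dim one from 134668003 to 134668062 in mm9. The dye split of the bright probe could not be checked at the dim one.

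Dusp10, the JNK and p38 phosphatase MKP-5, passed the filter only through the re-fed livers. Its spot stood clear of the background in all 4 re-fed livers and in 2 of the fasted livers. Raw intensities were 38 to 91 against backgrounds of 20 to 38. Its log2 ratios were 0.08, -0.10, -0.08 and -0.39, so that array 4 was the lowest and array 1 had the opposite sign. Normalized log2 intensities of arrays 1 to 4 were 6.40, 6.30, 6.31 and 6.26 in fasted liver and 6.32, 6.40, 6.39 and 6.65 in re-fed liver, and the groups overlapped. The mean was -0.12 ± 0.20 (SD, n = 4), with a 95% interval of -0.35 to 0.11 and a limma Benjamini-Hochberg adjusted p of 0.526. The probe, annotated to NM_022019, lies on chromosome 1 from 185898608 to 185898667 in mm9.

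Dusp4, the nuclear phosphatase MKP-2, and Dusp8, a phosphatase of JNK and p38, were not kept. Dusp4 was well above background on 1 array in fasted liver and on 3 in re-fed liver, with log2 ratios of -0.0039, 0.16, -0.15 and -0.16 and a mean of -0.04 ± 0.15 (SD, n = 4). Dusp8 was well above background on 2 arrays in each condition, with log2 ratios of 0.01, 0.03, 0.08 and 0.06 and a mean of 0.04 ± 0.03 (SD, n = 4). The Dusp4 ratios thus took both signs, and those of Dusp8 stayed within 0.08 of 0. Raw intensities were 33 to 83 for Dusp4 and 31 to 90 for Dusp8, against local backgrounds of 21 to 35 and 20 to 40.5. The offset of 50 added in the background correction pulls ratios of spots this dim toward 0, so the narrow spread of Dusp8 is no measure of its precision. Without the filter on dim probes, limma gave Benjamini-Hochberg adjusted p of 0.936 for Dusp4 and 0.858 for Dusp8. Dusp8, the gene with 2 full CREs in its window, was thus close to background in both conditions, and no difference was detectable there. The Dusp4 probe (NM_176933) lies on chromosome 8 from 35882045 to 35882104, and the Dusp8 probe (NM_008748) on chromosome 7 from 149267534 to 149267593, in mm9.

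**Figure D3:**
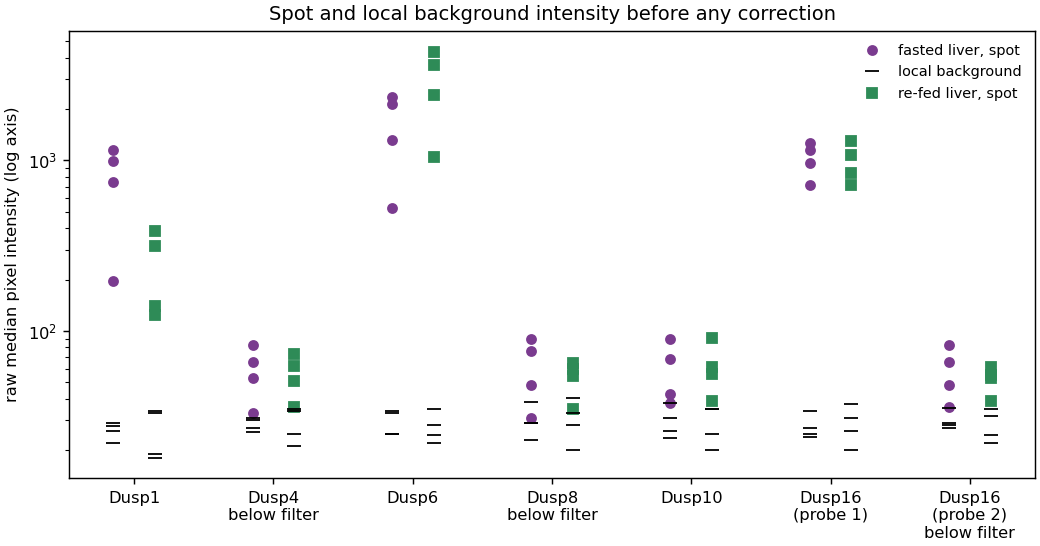
Raw median pixel intensity (y axis, log scale) of the spot of each of the 7 probes (x axis) in the 4 fasted and the 4 re-fed livers, with dashes for the local background. Dusp1, Dusp6 and the first Dusp16 probe lay between 124 and 4350.5, and the other 4 probes lay between 31 and 91, close to backgrounds of 20 to 40.5.

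Whole liver RNA was measured, so fewer cells of a type and less RNA per cell cannot be told apart. All 5 hepatocyte markers were well above background in all 8 livers, with a summed normalized intensity of 329400 to 410053 in fasted liver and 258628 to 364790 in re-fed liver. Their median log2 ratios were 0.33, 0.63, -0.05 and -0.10 on arrays 1 to 4, and 1 of the 5, the tyrosine aminotransferase gene Tat, was called higher, at 0.84 with a limma Benjamini-Hochberg adjusted p of 0.0452. Tat also had a dye effect with an adjusted p of 0.0471, and its groups overlapped. Pancreatic acinar genes stood apart on array 3, where the 3 kept of 7 (Ctrb1, Clps and Cel) had a median log2 ratio of -3.79, against -0.05 to 0.04 on the other arrays. The summed intensity of the 7 was 697 to 1558 in fasted liver and 677 to 30357 in re-fed liver. Without array 3 the mean of Dusp1 was 1.49 and that of Dusp6 -0.76, against 1.504 and -0.76 with it, while the limma Benjamini-Hochberg adjusted p was 0.101 and 0.0622, against 0.0253 and 0.0105. Endothelial markers, 4 of 4 above background in all livers, had summed intensities of 5225 to 5982 in fasted liver and 4301 to 4865 in re-fed liver, ranges that do not overlap. Of the 4, 0 were called, and only Stab2, at 0.35, had all fasted livers above all re-fed livers. Pecam1, Kdr and Lyve1 overlapped, with Kdr at -0.10 on array 2 and Lyve1 at -1.26 on array 3. The part of endothelial markers in the results for Dusp1 and Dusp6 was not tested. Red blood cell markers, 2 of 2 above background in all livers, had median ratios of 1.42, -0.27, 1.80 and 0.19 on arrays 1 to 4, and their part in the results was not tested either. Over all kept probes, ratios correlated at r = 0.66 between arrays 1 and 2 and r = 0.75 between arrays 3 and 4, which share a dye orientation, and at 0.22 to 0.40 between orientations.

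The genes whose 4 ratios lay nearest to those of Dusp1, by Euclidean distance among 12981 genes, were Cebpb (distance 0.49), Lgals4 (0.54) and Slc38a4 (0.69). Cebpb encodes a transcription factor of the fasted liver, Lgals4 a galectin and Slc38a4 an amino acid transporter. Cebpb had log2 ratios of 0.86, 1.91, 1.395 and 1.42, smallest on array 1 and largest on array 2 as for Dusp1. Among the genes nearest to Dusp6 were Sf3a1 (0.20), a splicing factor subunit, and Nop2 (0.21), a nucleolar RNA methyltransferase. Sf3a1 had ratios of -0.50, -0.68, -0.75 and -0.86.

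No other phosphatase of the pathway was called with the processing reported. A list of 5 further genes of the family consisted of Dusp2, Dusp5, Dusp7, Dusp9 and Styxl1. Of these, 2 were kept and 0 called by limma, although both kept genes had an unadjusted p under 0.05, which 22% of all genes had. Dusp2, a nuclear phosphatase first known from lymphocytes, had a mean log2 ratio of 0.29 ± 0.26 (SD, n = 4) with an adjusted p of 0.202. Dusp7, a cytoplasmic ERK phosphatase close to Dusp6, had -0.30 ± 0.09 with an adjusted p of 0.0722, past the limit on p but short of 1.5-fold, and its fasted livers all lay below its re-fed livers. Dusp7 was called lower with plain background subtraction, at -0.62, and with Agilent's processed signals, at -0.73. Of 14 atypical dual-specificity phosphatases 6 were kept and 0 called, with 1 at an unadjusted p under 0.05, and the largest ratios were -0.30 for Dusp11, 0.27 for Dusp22 and -0.24 for Dusp12. Dusp11 was called lower with processed signals, at -0.77. Of 6 tyrosine and PP2C phosphatases that act on the pathway 3 were kept and 0 called, with 2 at an unadjusted p under 0.05, at 0.32 for Ppm1d, 0.29 for Ppm1a and 0.18 for Ppm1b.

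The kinases that these phosphatases act on, and the kinases above and below them, held no gene called with the processing reported. Of 14 MAP kinases 12 were kept and 0 called, with ratios of -0.21 to 0.12 and 1 at an unadjusted p under 0.05. Mapk14, which encodes p38 alpha, had the largest at -0.21, followed by Mapk12 at -0.13 and Mapk3, which encodes ERK1, at 0.12. All 7 MAP kinase kinases were kept and 0 called, with 2 at an unadjusted p under 0.05. Map2k3, a kinase of p38, had a mean of -0.40 ± 0.11 (SD, n = 4) with a limma Benjamini-Hochberg adjusted p of 0.0382 and missed the fold limit, Map2k5 had 0.32, and Map2k6 had 0.20. Of 23 MAP kinase kinase kinases 19 were kept and 0 called, with 6 at an unadjusted p under 0.05, and Taok3 and Map3k6 at 0.38 and Map3k14 at -0.30 had the largest ratios. Of 6 scaffolds 5 were kept and 0 called, with 0 at an unadjusted p under 0.05, and Lamtor3 at -0.16, Ksr2 at 0.13 and Mapk8ip3 at -0.12 had the largest. Of 11 kinases activated by MAP kinases 8 were kept and 0 called, with 2 at an unadjusted p under 0.05. Mknk2, a kinase of the translation factor eIF4E, had 0.58 ± 0.31 (SD, n = 4) with an adjusted p of 0.0542, just short of 1.5-fold, followed by Mapkapk2 at 0.19 and Rps6ka1 at 0.14. Mknk2 was called higher with mean pixel signals at 0.59, with the deposited ratios at 0.587, with processed signals at 0.62, and without array 1 or array 4 at 0.65. Map3k6 was called higher with processed signals, at 0.82.

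Called genes lay among the feedback inhibitors, the ligands and the early and cAMP response genes. Of 10 other feedback inhibitors 5 were kept and 1 was called. Errfi1, an inhibitor of the EGF receptor, had log2 ratios of 1.18, 1.95, 0.79 and 0.82 and an adjusted p of 0.0269 in limma. All 14 receptors were kept and 0 called, with 4 at an unadjusted p under 0.05. Fgfr3 had -0.53 ± 0.08 (SD, n = 4) with an adjusted p of 0.0164 and missed the fold limit, though it was called lower with median centring at -0.64 and with processed signals at -0.59. A second kept Fgfr3 probe had -0.10 with an adjusted p of 0.473. Egfr had 0.47 ± 1.30 with both signs among its arrays, and Insr, the insulin receptor, had 0.41 ± 0.20. Of 10 ligands 7 were kept and 1 was called, Fgf21, a fasting hormone of the liver, with ratios of 0.34, 1.21, 0.90 and 2.00 and an adjusted p of 0.0560.

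Of 17 early genes that MAP kinases induce, 11 were kept and 1 was called. Egr1, an immediate early transcription factor, had log2 ratios of 1.39, 2.32, 1.86 and 2.72 and a limma Benjamini-Hochberg adjusted p of 0.00753. Etv5, an ETS factor downstream of FGF receptors and ERK, had 0.14, -0.75, -1.18 and -0.95 with an adjusted p of 0.122 and was not called with the processing reported. It was called lower with processed signals at -0.82, with median centring at -0.77, with the deposited ratios at -0.73, and at -0.69 with a dye term or separate channels. Atf3, a stress-induced factor, was called lower with plain subtraction at -0.77 and with processed signals at -1.005. On arrays 2 to 4 Etv5 and Dusp6 were both lower in fasted liver, and on array 1 they had opposite signs. Of 12 cAMP and glucocorticoid response genes 9 were kept and 3 called higher: Ppargc1a, a co-activator of gluconeogenic genes, at 1.20 with an adjusted p of 0.0034, the nuclear receptor Nr4a1 at 1.22 with 0.0578, and the kinase Sgk1 at 0.90 with 0.0782. Nr4a1 and Sgk1 each had a dye effect, with adjusted p of 0.0543 and 0.0458. Ppargc1a had a second kept probe at 0.45, which was not called for its size.

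Over the 13 lists, 108 of 149 genes were kept, 6 were called higher and 0 lower by limma, or 5.56% of those kept against 3.95% of all genes called in either direction. The lists' median log2 ratio was 0.09, against 0.0031 over all genes, and 33 of the 108 had an unadjusted p under 0.05, against 22% of all genes. Without array 3 the number called higher was 3, which were Egr1, Errfi1 and Ppargc1a. Without array 2 Fgf21 and Sgk1 were not called, and of the 4 arrays left out in turn Sgk1 kept its call only without array 4. Without array 1 Etv5 was called lower at -0.96. Rebuilt SAM called these 6 and also Sik1 higher and Etv5 lower. Sik1 had a mean of 0.82, with -0.06 on array 2, and was not called with the processing reported. It was also called higher with no background correction at 0.97, with plain subtraction at 1.22 and with processed signals at 1.32. Further such calls of Sik1 came with the deposited ratios at 1.02, with a dye term at 0.82 and without array 2 at 1.12. With the background model fitted on all spots limma called none of the lists' genes higher.

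**Figure D4:**
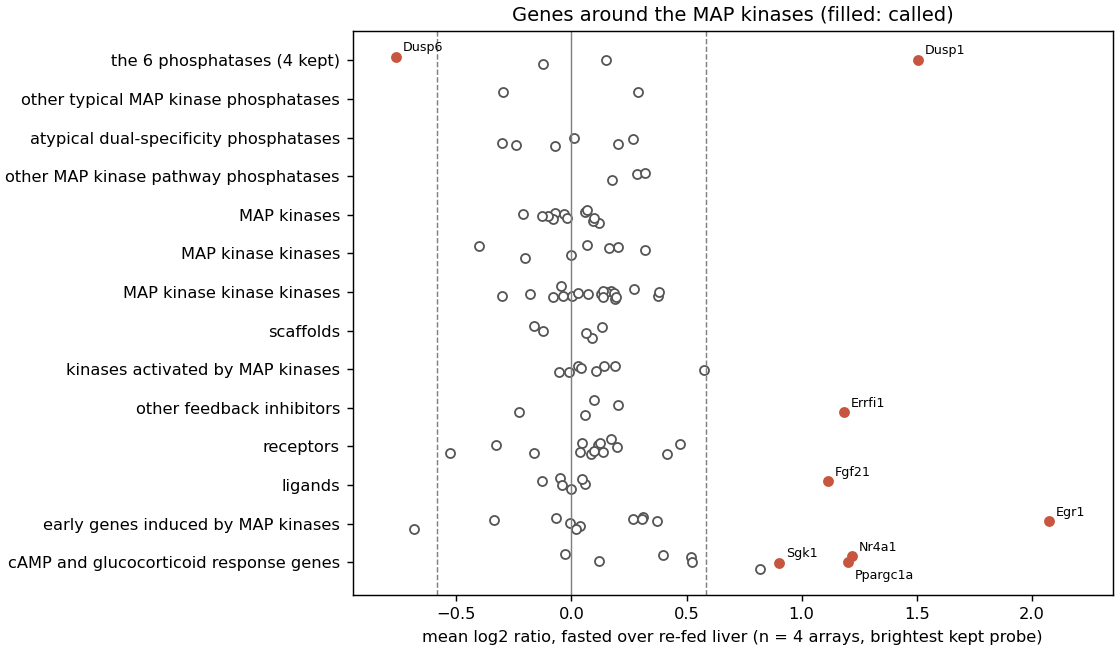
Mean log2 ratio of fasted over re-fed liver (x axis, n = 4 arrays, brightest kept probe) for each kept gene of the phosphatases and of the 13 lists (y axis), with filled points called, open points not called and dashed lines at 1.5-fold. Dusp6 at -0.76 is the lowest point shown, while Dusp1 at 1.504 is passed only by Egr1 at 2.07.

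**Figure D5:**
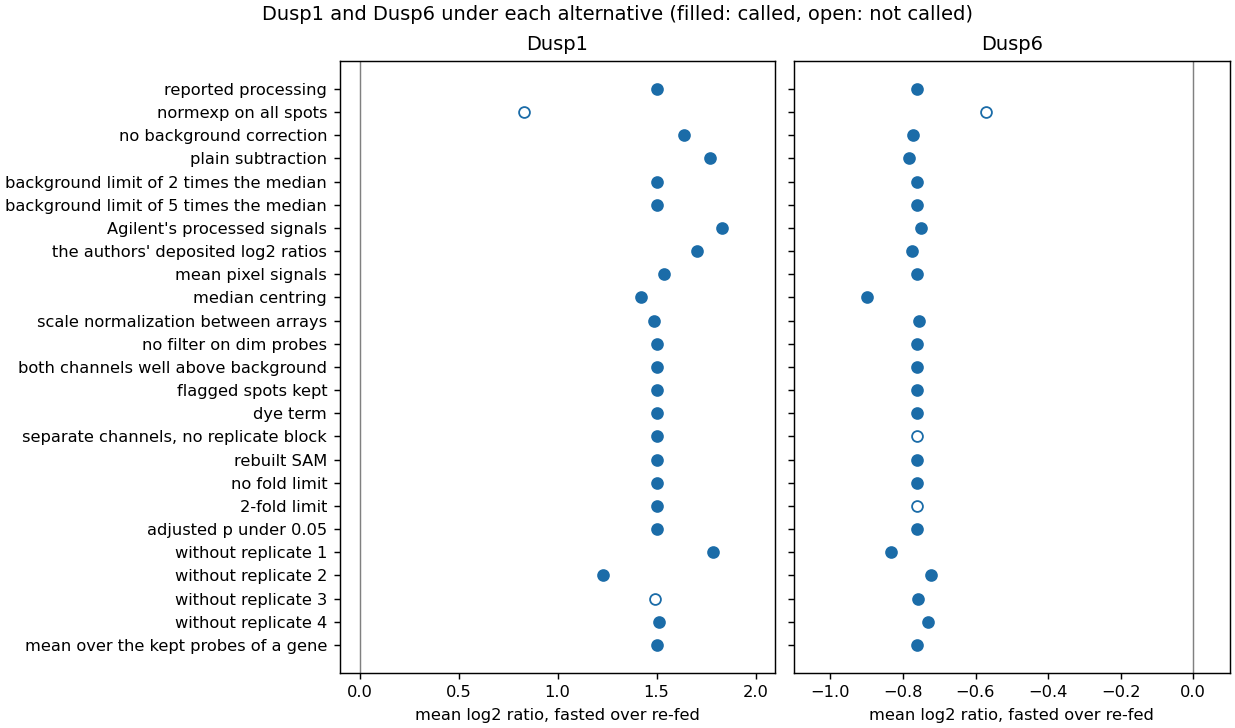
Mean log2 ratio of Dusp1 and of Dusp6 (x axes) under each processing alternative and without each array (y axis), filled where the gene was called and open where it was not. Dusp1 ranged from 0.83 to 1.83 and Dusp6 from -0.90 to -0.57, with no change of sign.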

How the data were processed

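RNA of 4 fasted and 4 re-fed livers was read on 4 arrays with 2 colours. The authors deposited the scanner files, which hold raw intensity per spot with local background, quality flags and processed intensity (Agilent Feature Extraction 10.10.1.1 and mm9, per the file headers). They also deposited log2 ratios normalized by loess in limma, matched to spots by row number and used as an alternative; their background step and centring are not given in the sources used here, and their column medians were -0.117, -0.081, 0.057 and 0.014.

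Median signals were read in limma 3.58.1 under R 4.3.3. Spots with a local background over 3 times the array's median were left out (55 of 177588), normexp with an offset of 50 and loess within arrays followed, and control and outlier spots (197 to 322 per array) were dropped. No spot was saturated. Ratios were turned to fasted over re-fed by dye and tested with lmFit and eBayes, two-sided, with Benjamini-Hochberg adjustment over 19719 kept probes. The methods name SAM at the same limits, an alternative here, as are other background corrections, normalizations, filters, a dye term, separate channels, thresholds and leaving out each array. Probes were named by RefSeq accession (26055), by symbol or synonym (3878) or as in the file (9496). The limma fit and the limits for calls were tested on simulated log2 ratios, and the steps before them were not.

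Members and lists were chosen with earlier results of these data known. Named were all members, from each of the 13 lists its called genes or else its 3 largest ratios, and the 3 genes nearest to each called member; a gene that this rule selects is not reported here. A few genes named beyond this rule were chosen after their values were seen. Of 10 marker lists those of hepatocytes, endothelial cells, acinar cells and red blood cells are given in the report, and the rest with the other observations. With 4 arrays, precision is limited by their number.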

Additional observations from a re-analysis of the deposited data

Results flagged for a closer look

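Among the 27 sets of values of the 7 probes and the 6 called list genes that were scanned for a value far from the others, 1 stood out. In the fasted livers, the normalized log2 intensity of Dusp1 on array 1 was 8.44, against 9.66, 9.83 and 9.75 on the other arrays, and its gap to the nearest was 0.879 of the whole range. Chance alone singles out about 1 in 20 such sets. Without that array the Dusp1 mean was 1.78 and the gene was still called.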

How the results depend on the processing

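No result changed sign among those called. With normexp fitted on all spots Dusp1 was 0.83 and Dusp6 -0.57, neither was called, and the lists had 0 higher, with 5 probes called higher and 14 lower in all. Dusp6 stayed at -0.76 but was not called at a 2-fold limit, with separate channels and no replicate block, or by the exact permutation test, so the members called lower numbered 0 under the first 2 of these. Leaving out each array gave 1.23 to 1.78 for Dusp1 (adjusted p 0.0143 to 0.101 in limma), 0 to 1 members higher, 3 to 7 list genes higher, 0 to 1 lower, and 208 to 412 probes higher and 256 to 525 lower.

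The dim genes moved by more than their SD. Dusp4 was -0.46 with Agilent's processed signals. Dusp8 was 0.011 with no background correction, 0.11 with plain subtraction, 0.0098 with normexp on all spots, -0.21 with processed signals, 0.076 with median centring and -0.0085 in the deposited ratios. Dusp10 and Dusp16 were called under no alternative, but Dusp10 ranged from -0.46 with processed signals to -0.0067 with normexp on all spots, and Dusp16 from 0.026 with median centring to 0.26 without array 3.

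List genes called higher numbered 11 with no fold limit and 3 at an adjusted p under 0.05. Those called lower numbered 2 with subtraction or median centring, 5 with processed signals or no fold limit, and 1 with the deposited ratios, a dye term, separate channels or rebuilt SAM. All probes called higher and lower numbered 335 and 410, then 549 and 714 with subtraction, 603 and 998 with processed signals, 935 and 1215 with no fold limit, and 99 and 132 at 2-fold. Median centring gave 230 higher and 635 lower, so that 26.6% of calls were higher against 44.97% as reported; the share was 26.3% with normexp on all spots. The cause of these shifts was not tested. Signal over background limits Dusp4, Dusp8, Dusp10 and the second Dusp16 probe.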

Other observations

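Markers of the other cell types that liver RNA could hold were read beside the phosphatases. Macrophage markers, 3 of 5 above background in all 8 livers, had a summed normalized intensity of 3234 to 4571 in fasted liver and 2523 to 4287 in re-fed liver. Stellate cell markers, 2 of 3, had 358 to 375 and 371 to 495. Bile duct markers, 2 of 4, had 366 to 498 and 378 to 601, and adipocyte markers, 1 of 4, had 285 to 388 and 301 to 447. Lymphocyte markers, 1 of 3, had 435 to 497 and 401 to 485, and neutrophil markers, 1 of 2, had 189.7 to 342 and 198 to 263. For bile duct cells and adipocytes 2 markers each, and for lymphocytes 1, were above background in no liver. The ranges of fasted and re-fed liver overlapped for each of these 6 lists.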
